A study of Mus musculus with 8 samples.

Results

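The p53-linked arrest and checkpoint genes examined beside Cdkn1a were Rprm, Gtse1, Psrc1, Ccng1, Ccng2, Btg2, Gadd45a, Gadd45b, Gadd45g and Sfn. They were found as the non-control spots that the array design names for these genes, and each of the 10 genes had 1 probe on the arrays, among 55681 probes and 21021 RefSeq genes in all. Whole-genome one-colour Agilent arrays measured RNA from the thyroid of female Balb/c mice of 8 weeks, with 4 control thyroids and 4 thyroids taken 24 h after intraperitoneal 99mTcO4- (pertechnetate), which delivered about 30 Gy to the gland. The methods describe 4 biological replicates per condition. The controls are called untreated in the study's results and saline-injected in a figure legend. The arrays shared 1 slide and 1 scan, where exposed glands came before control glands in position, so that position and exposure cannot be told apart.

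The p53 protein is a transcription factor that accumulates after DNA damage and raises the RNA of genes that stop the cell cycle, repair DNA or start apoptosis. Cdkn1a encodes p21, an inhibitor of cyclin-dependent kinases and the best known of its arrest targets. The genes considered here act beside it. Rprm (reprimo) is linked to arrest in G2, Sfn (14-3-3 sigma) holds Cdk1 and cyclin B in the cytoplasm, the Gadd45 proteins bind stress kinases and Cdk1, Btg2 restrains the passage from G1 to S, and Ccng1 and Ccng2 encode cyclins G1 and G2. Gtse1 and Psrc1 encode microtubule-associated proteins of the mitotic spindle, and Gtse1 protein also binds p53 and restrains it.

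Thyroglobulin, the hormone precursor that marks thyrocytes, stood at a mean log2 signal of 18.85 (Tg) in controls and 18.89 in exposed glands. Of 11 thyrocyte genes, 9 had lower values in exposed glands, 3 of them at an unadjusted p below 0.05 in limma. Over all 55681 probes, 6772 reached that limit in either direction. The median log2 fold change of the thyrocyte list was -0.358. Slc5a5, the iodide symporter, was the 1 gene of the list called lower (-3.53, SE 0.406, limma adjusted p = 0.0137). Over all 55681 probes, 108 were called lower. The mean log2 signal over the list was 11.39 to 12.09 on control arrays and 10.93 to 11.21 on exposed arrays, and the part of this difference in the results for the arrest genes was not tested. The arrays within each group were not alike. Thymocyte genes were high on control replicates 1 and 2, where Rag1, the lymphocyte recombinase, read 11.96 and 10.64 on the log2 scale, against 2.80 to 5.45 on the other 6 arrays. The mean log2 signal over the 10 thymocyte genes ranged from 7.77 to 12.02 on control arrays and from 7.88 to 8.83 on exposed arrays. No gene of the thymocyte list, or of the lists for skeletal muscle, stratified epithelium, myeloid cells, and parathyroid and C cells, was called by limma, and only myeloid genes reached an unadjusted p below 0.05 (2, both lower). The signs still leaned 1 way in several lists. Lower values were seen for 8 of 8 skeletal muscle genes (median log2 fold change -1.01) and 9 of 10 thymocyte genes (-1.76). The same held for 5 of 8 stratified epithelium genes (-0.687). All 6 parathyroid and C-cell genes had higher values (0.485). Of the 7 myeloid genes 5 had higher values in exposed glands, with a median log2 fold change of 0.625, and exposed replicate S588 stood apart. The mean log2 signal of that list was 12.1 on S588 and at most 10.23 on the other arrays, and S100a8, a neutrophil protein, read 13.35 on S588 and 5.84 to 8.67 elsewhere. Csf1r and Adgre1, the 2 lower genes of the list, were not high on S588. They read 12.67 and 8.20 there, against 13.28 to 13.63 and 8.87 to 9.29 in controls. In bulk tissue, fewer cells of a type and less RNA per cell cannot be told apart.

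Of the 10 genes, 4 were called higher in exposed thyroids at a limma adjusted p below 0.05 (Rprm, Gtse1, Psrc1 and Btg2), 0 were called lower and 6 were not called. At an unadjusted p below 0.05 in limma there were 7 higher and 0 lower, beside 6772 of all 55681 probes in either direction. Over all probes, 0.587% were called higher. A total of 7 genes had every exposed array above every control array, which held for 4.74% of all probes. The median log2 fold change of the 10 genes was 1.68, beside 0.00767 over all probes. With control replicates 1 and 2 both left out, an alternative added after the values were seen, 3 of the 10 genes were called (Rprm, Gtse1 and Psrc1).

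**Figure D1:**
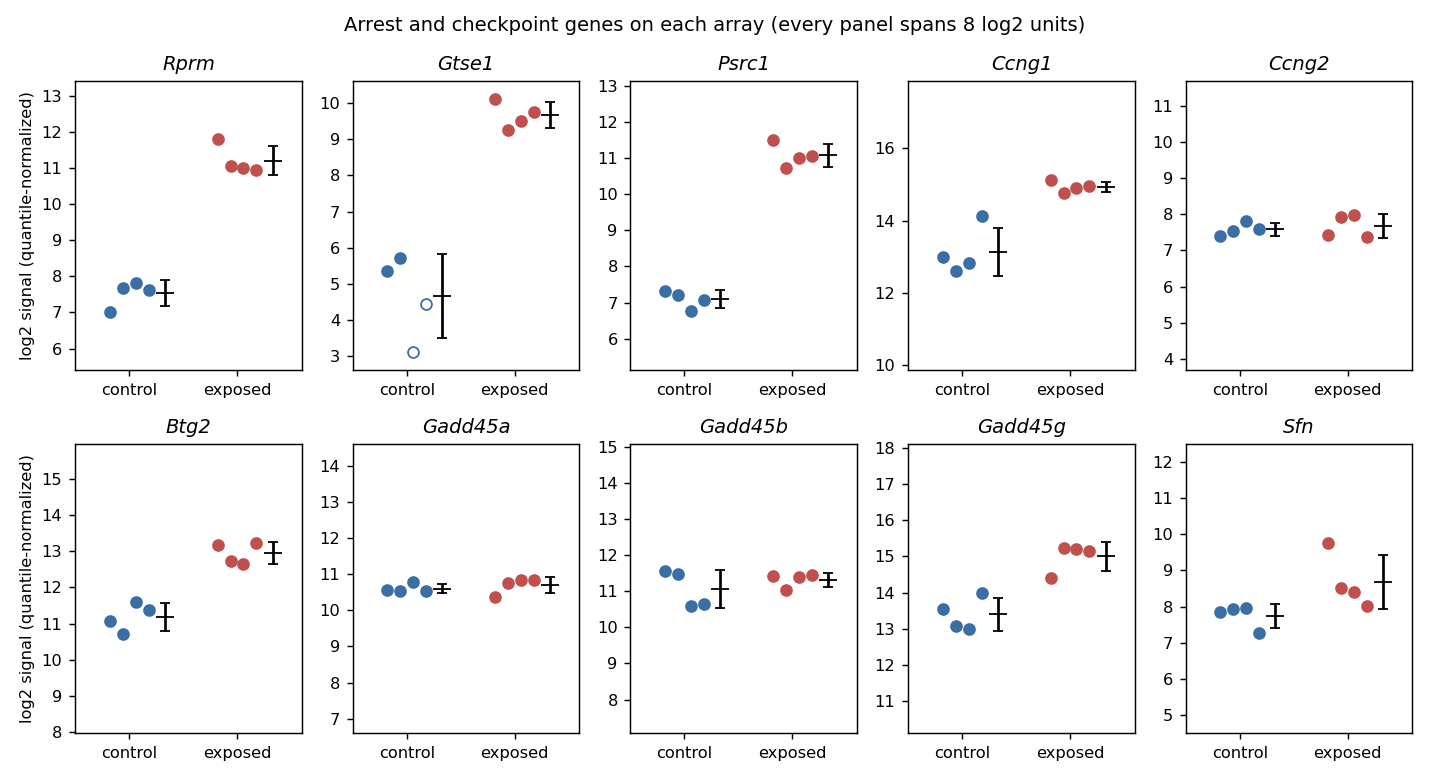
Log2 quantile-normalized signal of each gene on the 4 control (blue) and 4 exposed (red) arrays, with the group mean and SD in black and every panel spanning 8 log2 units; open points are spots not well above background. Rprm, Gtse1 and Psrc1 show the widest gaps between the groups, and Ccng2, Gadd45a and Gadd45b overlap.

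Promoter sequences are shown first for the genes in which a p53 element was found, since these are the letters that p53 reads. The element is a pair of 10-base half-sites, searched here on both strands with up to 2 mismatches and a spacer of up to 13 bases, over the 250 bases before each RefSeq start (build GRCm38.p6). Among these genes only Ccng1, with 1 mismatch and no spacer, and Gadd45a, with 2 mismatches and a spacer of 6 bases, held it. It occurred in 2 of the 12 promoters of the 10 genes and in 3.34% of all 32841 promoters of this length. Capitals mark the element, 195 to 176 bases before the start in Ccng1 (chr11:40755287-40755536, minus strand) and 56 to 31 bases before it in Gadd45a (chr6:67037408-67037657, minus strand).
Ccng1: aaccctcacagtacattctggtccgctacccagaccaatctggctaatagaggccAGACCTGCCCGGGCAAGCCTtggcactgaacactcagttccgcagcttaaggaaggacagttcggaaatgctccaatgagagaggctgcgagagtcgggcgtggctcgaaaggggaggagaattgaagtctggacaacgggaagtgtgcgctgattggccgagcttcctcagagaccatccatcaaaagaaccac
Gadd45a: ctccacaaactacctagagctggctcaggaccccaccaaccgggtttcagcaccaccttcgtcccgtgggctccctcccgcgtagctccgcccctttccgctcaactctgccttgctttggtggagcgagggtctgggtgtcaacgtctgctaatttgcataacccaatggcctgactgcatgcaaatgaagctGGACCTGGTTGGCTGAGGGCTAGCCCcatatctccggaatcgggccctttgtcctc
The 2 genes differed in these data, with Ccng1 higher on every exposed array and Gadd45a overlapping between the groups, as described with their values. A match is a description of the letters, and a promoter without one only lacks these letters in this window.

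The promoters of Gtse1 and Psrc1, whose log2 fold changes were the largest, are shown for another motif. CCAAT, searched on both strands, occurred in 8 of the 10 genes, all but Rprm and Ccng2. By promoter, it occurred in 10 of the 12 promoters of these genes and in 33.9% of all promoters. It was thus not particular to genes that rose, being present in Gadd45a and Gadd45b, whose groups overlapped. It stood 99 to 95 and 73 to 69 bases before the first start of Gtse1 (chr15:85859457-85859706, plus strand) and 241 to 237 and 41 to 37 bases before the first start of Psrc1 (chr3:108383554-108383803, plus strand). Capitals mark CCAAT or its reverse complement ATTGG.
Gtse1: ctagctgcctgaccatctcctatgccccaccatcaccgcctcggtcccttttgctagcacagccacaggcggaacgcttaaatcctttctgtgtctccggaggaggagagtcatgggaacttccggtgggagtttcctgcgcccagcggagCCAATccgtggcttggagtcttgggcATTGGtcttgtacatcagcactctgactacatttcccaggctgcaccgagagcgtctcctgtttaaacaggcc
Psrc1: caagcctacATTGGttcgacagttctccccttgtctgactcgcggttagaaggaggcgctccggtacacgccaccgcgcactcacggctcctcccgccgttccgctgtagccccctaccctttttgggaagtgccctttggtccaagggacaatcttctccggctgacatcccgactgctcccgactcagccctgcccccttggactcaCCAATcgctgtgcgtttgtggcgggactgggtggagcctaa
Rprm, which also rose, held neither motif in this window (chr2:54085553-54085802, minus strand). The exact letters TTTGAA, a cell-cycle homology motif found near the starts of many mitotic genes, occurred in none of the 10 genes and in 16% of all promoters. Both strands were searched, and variants of that motif were not. TGACGTCA, the cyclic AMP response element, occurred in Btg2 and in 1.55% of all promoters.

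Rprm was raised on every exposed array. Its probe (mm9 chr2:53936668-53936727, minus strand) read 7.02, 7.68, 7.83 and 7.62 log2 units on control replicates 1 to 4, and 11.79, 11.06, 10.99 and 10.94 on exposed replicates S539, S588, S589 and S590. All exposed arrays lay above all controls, by at least 3.11 log2 units, with S539 the highest. The log2 fold change was 3.66 (SE 0.258, limma adjusted p = 0.00286), with a 95% confidence interval of 3.06 to 4.25, or 12.6-fold. Its closest counterpart across the 8 arrays, among 13757 RefSeq genes, was Cpt1c, a brain-type carnitine palmitoyltransferase, with r = 0.997 and a log2 fold change of 3.22. This r, like those of the closest patterns below, is the highest of many and largely follows the gap between the groups. It is a description and was not tested.

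The spindle genes Gtse1 and Psrc1 rose with it. Psrc1 (mm9 chr3:108190744-108190803, plus strand) read 7.33, 7.22, 6.77 and 7.07 log2 units in controls and 11.49, 10.74, 10.99 and 11.07 in exposed glands. The controls lay close together, far below the lowest exposed array, and S539 was again the highest. The log2 fold change was 3.97 (SE 0.204, limma adjusted p = 0.0013), 15.7-fold, and its probe ranked 2 of all 55681 by p. Its closest pattern over the 8 arrays was that of Ass1, argininosuccinate synthase, with r = 0.997.

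Gtse1 had the largest fold change of the 10 genes with background-subtracted signals, and the largest standard error. Its probe (mm9 chr15:85706887-85706946, plus strand) read 5.36, 5.72, 3.11 and 4.44 log2 units in controls and 10.11, 9.27, 9.51 and 9.77 in exposed glands. The lowest exposed array was 3.54 log2 units above the highest control. Only 2 of the 4 control spots, replicates 1 and 2, were well above background, so the control mean of 4.66 rests partly on values near background. The log2 fold change was 5.01 (SE 0.545, limma adjusted p = 0.0111). It was 3.30 in the deposited values, 3.28 with no background correction and 3.13 after normexp background correction, all called, where Psrc1 was larger at 3.49, 3.46 and 3.37. Gtse1 lost the call without exposed replicate S590 (adjusted p = 0.0545 in limma).

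As a list, other genes of G2 and mitosis did not rise with these spindle genes. Of 20 G2 and mitosis genes 0 were called in either direction with background-subtracted signals. In all, 16 had lower values, with a median log2 fold change of -1.2. At an unadjusted p below 0.05 limma gave 2 higher, Wee1 and Chek2, and 7 lower, beside 6772 of 55681 probes in either direction. Wee1 (1.23, limma adjusted p = 0.0799) and Chek2 (0.62, limma adjusted p = 0.203) had every exposed array above every control. Cks1b (-1.175, limma adjusted p = 0.0752) had every exposed array below every control. The study lists Wee1 and Cks1b among its modulated genes of the G2/M checkpoint. Calls under other processing are not given for this list, so the count of 0 holds for this processing only. Mki67, a marker of cycling cells, read 11.89, 11.66, 8.51 and 7.90 log2 units in controls and 7.55, 8.91, 6.87 and 7.26 in exposed glands. Top2a, the topoisomerase of dividing cells, read 8.87 and 9.58 on control replicates 1 and 2, and from 3.36 to 4.95 on the other 6 arrays. Both were high on the same control arrays as the thymocyte genes, and whether those cells set the mitosis signal was not tested. Gtse1 was also somewhat higher on these arrays than on the remaining controls, and it was still called without them (limma adjusted p = 0.0311). Neither remaining control spot was well above background, so that setting does not settle the size of the change. Over all 8 arrays the log2 fold change of Gtse1 was 3.30 in the deposited values and 3.13 after normexp background correction. Ckap2, another p53-linked spindle gene outside the 10, rose by 3.01 (SE 0.41, limma adjusted p = 0.0235).

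**Figure D2:**
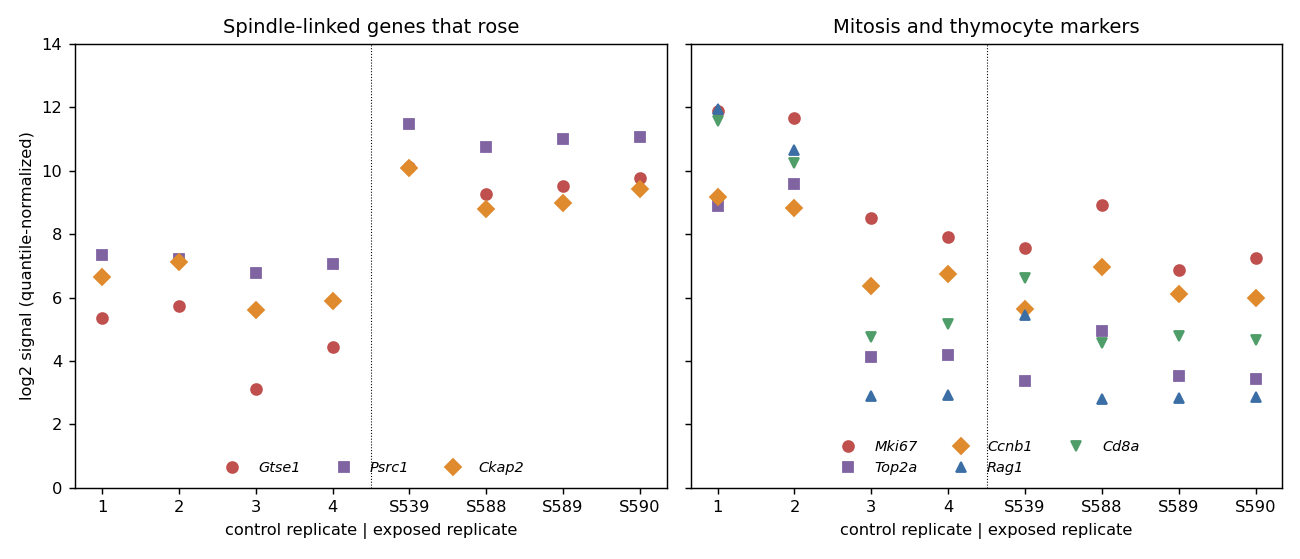
Log2 quantile-normalized signal on each of the 8 arrays of the spindle-linked genes Gtse1, Psrc1 and Ckap2 (left) and of mitosis and thymocyte markers (right), with controls before the dotted line. The 3 spindle-linked genes are higher on every exposed array, whereas Mki67, Top2a, Ccnb1, Rag1 and Cd8a are highest on control replicates 1 and 2.

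Btg2, an antiproliferative gene that recruits mRNA deadenylases, was raised 3.39-fold. Its probe (mm9 chr1:135972094-135972153, minus strand) read 11.07, 10.71, 11.59 and 11.38 log2 units in controls and 13.17, 12.74, 12.65 and 13.24 in exposed glands. The groups did not overlap. The log2 fold change was 1.76 (SE 0.238, limma adjusted p = 0.023), and the call was lost in 6 of the 8 fits that left out 1 array. It was kept without control replicate 1 or control replicate 3, and the adjusted p of these limma fits ranged from 0.0452 to 0.0816. Its closest pattern was that of Plaur, the urokinase receptor (r = 0.992 over 8 arrays), whose log2 fold change was 0.75.

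Of the cyclins G, only Ccng1 had every exposed array above every control, and neither was called with background-subtracted signals. Ccng1 (mm9 chr11:40562427-40562486, minus strand) read 12.99, 12.60, 12.82 and 14.11 log2 units in controls and 15.13, 14.78, 14.90 and 14.94 in exposed glands. Control replicate 4 stood above the other controls but below every exposed array. Its log2 fold change of 1.81 (SE 0.321) had a limma adjusted p of 0.0584 and was not called. Without control replicate 4 it was 2.13 with a limma adjusted p of 0.0117. In the other fits that left out 1 array, the limma adjusted p ranged from 0.0994 to 0.165 and Ccng1 was not called. In the deposited values its log2 fold change was 1.78 and it was called (limma adjusted p = 0.0177). The study lists Ccng1 among the modulated genes of p53 signaling. Ccng2 (mm9 chr5:93705131-93705190, plus strand) read 7.40 to 7.81 in controls and 7.38 to 7.99 in exposed glands, a difference of 0.10 with an interval of -0.35 to 0.55. The change of Ccng1 exceeded that of Ccng2 by 1.71 log2 units (SE 0.417). A two-sided exact permutation test over arrays gave p = 0.0286, the smallest that 4 against 4 arrays can give, and 0.0571 after Benjamini-Hochberg adjustment over the 4 pairs compared.

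The Gadd45 family, whose proteins activate the kinase MAP3K4 and bind Cdk1 and PCNA, held no called gene with background-subtracted signals. Gadd45g (mm9 chr13:51943733-51943792, plus strand) read 13.53, 13.08, 12.998 and 13.98 log2 units in controls and 14.40, 15.24, 15.22 and 15.15 in exposed glands. Exposed replicate S539 was the lowest of its group and still 0.415 above the highest control. The log2 fold change of 1.6 (SE 0.287) had a limma adjusted p of 0.0606 and was not called. In the deposited values it was 1.55 and called (limma adjusted p = 0.0139). The study lists Gadd45g among the modulated genes of p53 signaling. Gadd45a (mm9 chr6:66985376-66985435, minus strand) read 10.52 to 10.79 in controls and 10.37 to 10.84 in exposed glands, a difference of 0.10 with an interval of -0.26 to 0.46. Gadd45b (mm9 chr10:80394367-80394426, plus strand) read 11.55 and 11.48 on control replicates 1 and 2, 10.60 and 10.63 on replicates 3 and 4, and 11.03 to 11.44 in exposed glands, a difference of 0.25 with an interval of -0.37 to 0.87. With 1 array left out the Gadd45b value ranged from 0.097 (without control replicate 3) to 0.41 (without control replicate 1), and it was 0.70 without control replicates 1 and 2 (limma adjusted p = 0.246). The change of Gadd45g exceeded that of Gadd45a by 1.5 log2 units (SE 0.284, exact permutation p = 0.0286, adjusted 0.0571) and that of Gadd45b by 1.35 (SE 0.456, exact p = 0.0571, adjusted 0.0762), while Gadd45a and Gadd45b differed by -0.15 (exact p = 0.6).

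Sfn (mm9 chr4:133156842-133156901, minus strand) read 7.86, 7.93, 7.96 and 7.26 log2 units in controls and 9.75, 8.51, 8.40 and 8.03 in exposed glands. The groups did not overlap, by only 0.0697 log2 units, and S539 stood far above the other exposed arrays. Its log2 fold change was 0.92 (SE 0.374, limma adjusted p = 0.384), and 0.56 without S539. Sfn is expressed in stratified epithelium, whose 8 marker genes had a mean log2 signal of 8.12 to 9.38 in controls and 7.73 to 8.46 in exposed glands, and their part in the value was not tested.

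**Figure D3:**
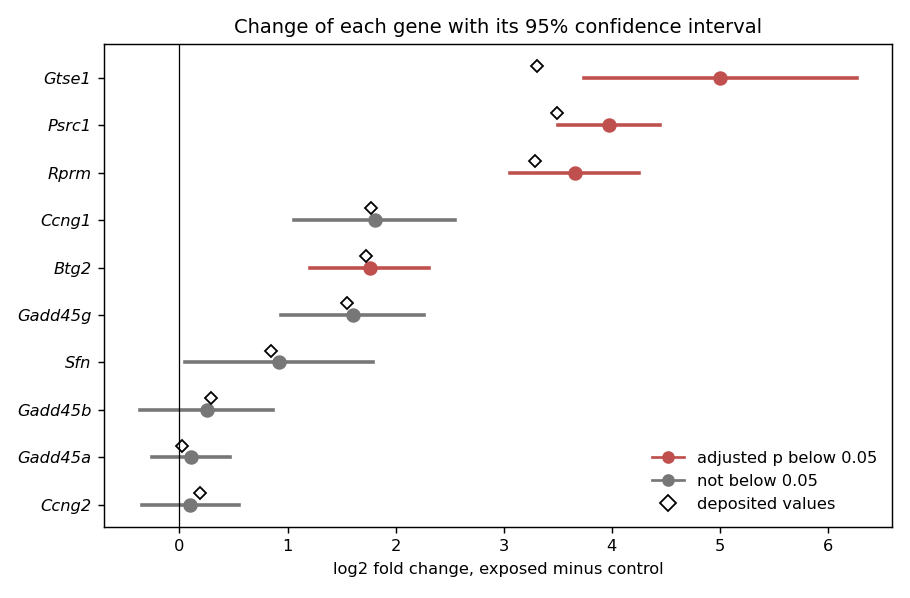
Log2 fold change, exposed minus control, of each gene with its 95% confidence interval (red, limma adjusted p below 0.05; gray, not), and the fold change in the deposited values (open diamonds). Rprm, Psrc1, Gtse1 and Btg2 are the genes called. The diamond of Gtse1, at 3.30, lies below its interval, and that of Psrc1, at 3.49, lies just below its lower limit of 3.5.

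The calls were repeated under 18 settings, each with another processing step or with arrays left out, 1 of which, the mean over a gene's probes, repeats the reported values. Rprm and Psrc1 were called in all 18, Gtse1 in 17, Btg2 in 11, Ccng1 in 7, Gadd45g in 6, and the remaining 4 genes in none.

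**Figure D4:**
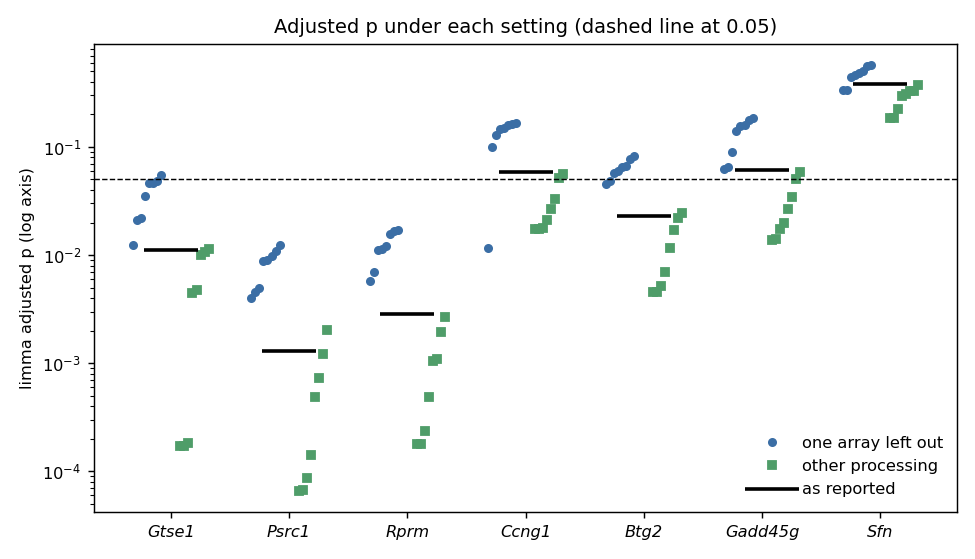
Limma adjusted p (log axis) of the 7 genes whose groups did not overlap, as reported (bar), with 1 array left out (blue) and under other processing (green); the dashed line is 0.05. Rprm and Psrc1 stay under the line at every point, Gtse1 at all but 1, and Sfn at none.

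Cdkn1a itself read 11.54, 10.88, 10.80 and 11.64 log2 units in controls and 15.76, 14.89, 14.70 and 14.84 in exposed glands, a log2 fold change of 3.83 (SE 0.304, limma adjusted p = 0.0032). The other Cdkn1a probes gave 3.63 (limma adjusted p = 0.0308) and 2.72 (limma adjusted p = 0.0203). With background-subtracted signals, Gtse1, Psrc1 and Rprm were thus near or above the Cdkn1a values and the other 7 genes below all 3, differences that were not tested. Gtse1 fell to 3.30 in the deposited values, a setting in which no Cdkn1a value is given. Of 26 other p53 targets, 20 were called higher and 0 lower, with a median log2 fold change of 1.86, beside 4 of 10 and 1.68 for the arrest and checkpoint genes. Over all 55681 probes, 0.587% were called higher and 108 probes were called lower. Of the 26, the study had already reported Cdkn1a, Mdm2, Bax and Fas as raised on these arrays. The largest changes of the 26 were those of Gdf15, a stress cytokine (4.23), Cdkn1a, Pmaip1, a killer BH3 protein also called Noxa (3.58), and Ckap2. Of 25 partners of the 10 genes, 1 was called higher, Mapre3, a microtubule-end protein (1.15, limma adjusted p = 0.0327), and the list's median was -0.265. Of 14 measured relatives, 1 was called higher, Tob2, a BTG-family antiproliferative gene (0.93, limma adjusted p = 0.0324). The family cyclin Ccnf, at 1.41, was not called (adjusted p = 0.179 in limma). Of 18 genes of G1 and S entry, 1 was called lower, Cdc6, the replication licensing factor, which was well above background on 4 control arrays and on none of the exposed arrays (limma adjusted p = 0.0174). The 16 immediate-early genes had a median of 0.796, with 0 called and 7 higher at an unadjusted limma p below 0.05. That limit was reached by 6772 of 55681 probes in either direction.

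**Figure D5:**
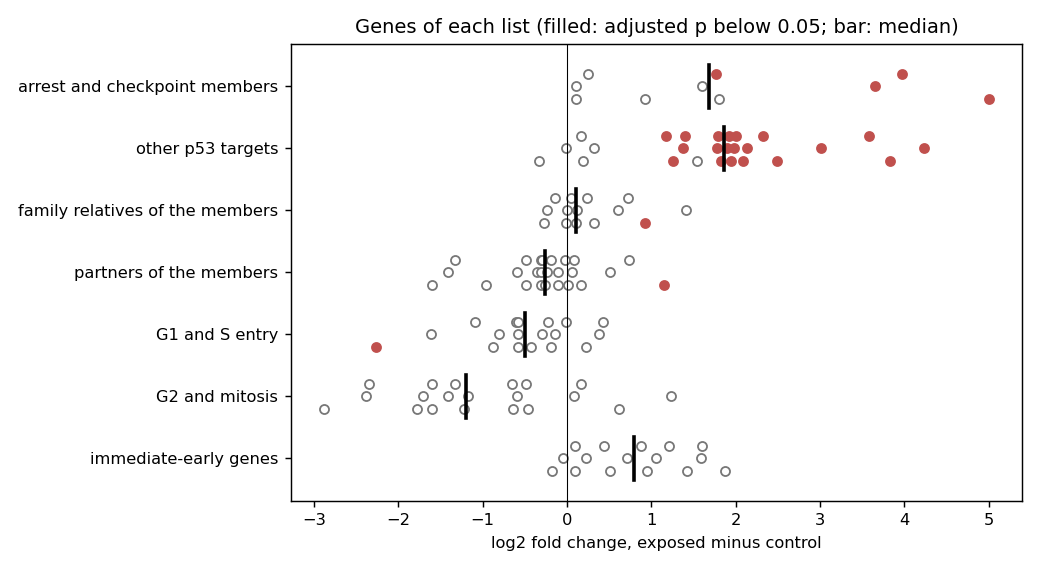
Log2 fold change, exposed minus control, of every gene of each list, filled where the limma adjusted p was below 0.05, with the list median as a bar. The other p53 targets hold 20 filled points on the right, and the G2 and mitosis genes hold none.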

How the data were processed

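Each of 8 mouse thyroids was measured on its own one-colour Agilent array. The scanner files deposited by the authors give a raw and a background-subtracted intensity for each spot (Feature Extraction 10.7.3.1). A second deposited file holds log2 values, which differed from the quantile-normalized log2 median spot signal by at most 0.0378 over 59305 spots. The methods name quantile normalization and a 0.05 limit on the adjusted p.

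Here the log2 of the background-subtracted intensity was quantile-normalized, control spots were dropped, spots of a probe were averaged, and exposed and control arrays were compared over 55681 probes in limma 3.58.1 (R 4.3.3) with lmFit and eBayes and Benjamini-Hochberg adjustment. The number of arrays limits the precision. Pairs of family members were compared by exact permutation over the 70 assignments of arrays. Positions of probes come from the scanner files (mm9), and promoters are from RefSeq, build GRCm38.p6. The genes and lists were chosen with earlier results of these data known. All 10 genes are given, and of each other list up to 4 called genes with the largest change. Markers, Ccnf, Wee1, Chek2 and Cks1b were named after their values were seen. Alternatives covered background correction, scaling, deposited values, outlier and dim spots, a variance trend, array weights and each array left out. The procedure was tested on simulated data.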

Additional observations from a re-analysis of the deposited data

Results flagged for a closer look

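Among 20 sets of 4 arrays (10 genes in 2 groups), 5 held 1 array far from the other 3 by Dixon's criterion, which chance alone would give in about 1 of 20. Exposed replicate S539 was the array set apart in 3 of the 5, and the cause was not tested. Rprm read 11.79 log2 units on S539 and 10.94 to 11.06 on the other exposed arrays. Gadd45g read 14.4 on S539 and 15.15 to 15.24 on the others, and Gadd45a read 10.37 there and 10.76 to 10.84 on the others. Gadd45b read 11.02 on exposed replicate S588 and 11.39 to 11.44 on the others. Sfn read 7.259 on control replicate 4 and 7.862 to 7.958 on the other controls.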

How the results depend on the processing

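Of the 10 genes, 4 were called, with 2 to 4 when 1 array was left out (2 without exposed replicate S590). The count rose to 6, with Ccng1 and Gadd45g added, under normexp or no background correction, the deposited values, a dim-probe filter, a variance trend and array weights, and stayed at 4 under 75th percentile scaling. Rprm and Psrc1 were called in 18 of 18 settings, Gtse1 in 17 and Btg2 in 11. Without control replicates 1 and 2, chosen for leaving out after seeing the data, Btg2 lost its call (log2 fold change 1.46, adjusted p = 0.122), Ccng1 was 1.47 (adjusted p = 0.235), Gadd45b was 0.70 (adjusted p = 0.246) and Ccng2 turned to -0.013. With 1 array left out, Ccng2 ranged from -0.00081 (without exposed replicate S589) to 0.20. Since each gene had 1 probe, the rules over several probes gave the same values. Scaling by the 75th percentile moved the median of all probes to 0.165 and the share of calls that were higher from 75.2% to 84.7%, against 67.5% in the deposited values. Over all probes there were 435 calls, 100 (without S590) to 485 (without control replicate 1) with 1 array left out, 83 without control replicates 1 and 2, 577 under that scaling, 856 with normexp, 962 with no background correction and 955 in the deposited values. With 1 array left out, the difference of Ccng1 and Ccng2 ranged from 1.54 to 2.03, that of Gadd45g and Gadd45a from 1.32 to 1.72, and that of Gadd45g and Gadd45b from 1.11 to 1.69, all 3 highest without control replicate 4 (exact permutation adjusted p = 0.0381). That of Gadd45a and Gadd45b ranged from -0.32 to 0.068. No paired analysis was possible because the labels give the groups no shared replicate numbers.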
